A study of Drosophila melanogaster with 9 samples.

Results

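Excess Chinmo was expressed in prospero RNAi tumors of the ventral nerve cord (VNC) of Drosophila larvae. The RNA of these VNCs was compared with that of VNCs with prospero RNAi tumors but without the chinmo transgene. The comparison rests on 6 of the 9 libraries of the series, chosen by genotype label, with 3 replicates (A, B and C) of nab>prosRNAi, chinmo and 3 of nab>prosRNAi, the control. Both genotypes carried nab-GAL4, UAS-dicer2 and UAS-prosperoRNAi, and the first also carried UAS-chinmoFL. That transgene came with its own chromosome from the male parent, and the paper describes no control chromosome in its place. Excess Chinmo and other differences of that chromosome therefore cannot be told apart in any gene below. Larvae were kept for 7 days at 18°C and 3 days at 29°C and were dissected as wandering L3 larvae. Each library pooled the VNCs of many animals, 51 to 82 brains per replicate with the chinmo transgene and 57 to 79 without it. The driver nab-GAL4 reports the activity of the nab gene and works in neuroblasts of the nerve cord and of the central brain, so the transgenes act in neuroblasts and their progeny, while glia, neurons born earlier and attached tissue were sequenced with them. The reads do not separate transgenic from endogenous chinmo. The 3 libraries of nab>prosRNAi, chinmoRNAi, in which chinmo is knocked down in the same tumors, are shown beside the result for single genes and entered no test.

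Neuroblasts are the stem cells of the insect nervous system. They divide asymmetrically and bud off a smaller daughter in which the homeodomain protein Prospero ends proliferation and starts differentiation. When prospero is silenced, daughters go back to a neuroblast-like state and form tumors. In the paper only tumors begun early in larval life kept growing in adults, and many of their cells differentiated during metamorphosis. Chinmo is a BTB zinc-finger transcription factor made in neuroblasts and neurons early in larval life together with the RNA-binding protein Imp. Later in larval life both give way to the RNA-binding protein Syncrip and, under the steroid hormone ecdysone, to a late set of factors that includes Eip93F.

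The table held 15340 genes. Reads on genes numbered 34712815 to 40518948 per library with excess Chinmo and 35575053 to 43415151 in the control, so counting noise matters only for genes with few reads. Libraries of the same group differed by far more than counting noise (chi-square per degree of freedom 25.2 to 70.5 over genes), and none was a copy of another. Markers of the labelled tissue were present throughout: mira, an adaptor protein gene of neuroblasts, was at 35608 or more and the neuronal gene elav at 4234 or more in each of the 6 libraries. Replicate A of nab>prosRNAi, chinmo stood apart: 161 genes were at least 4-fold higher in it than in all 5 other libraries, against 9 for replicate B and 13 for replicate C. The summed normalized read count of 53 gut genes was 50986 in that library, 1310 and 2627 in chinmo replicates B and C, and 2578, 3970 and 14086 in control replicates A, B and C. Of the 161 genes, 4 passed the test. A normalized read count is the number of reads on a gene divided by a size factor of the library, and all values below are on that scale unless a log2 difference is named.

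The level of many genes differed between the groups in both directions. The groups also differed in the levels of Dcr-2 and pros, given below, and the part of these in the counts was not tested. Of 11057 genes tested, 1077 (9.74%) were higher and 913 (8.26%) lower with excess Chinmo at an adjusted p under 0.05 (limma on log2 values with Benjamini-Hochberg adjustment). The median log2 fold change was -0.02 over all tested genes, 0.46 over the genes that rose and -0.71 over those that fell. Scaling the libraries to the same total gave 817 higher and 1620 lower. A change beyond 2-fold was found for 239 of the genes that rose and 248 of those that fell, beyond 4-fold for 107 and 45, and beyond 8-fold for 48 and 12. In none of the called genes did the libraries of both groups overlap. Among all tested genes, the 3 chinmo libraries lay above the 3 control libraries for 20.5% and below them for 22.2%. The counts depended on which library was left out. Without chinmo replicate A, 581 genes were higher and 485 lower; without chinmo replicate B, 622 and 576; without chinmo replicate C, 885 and 874; without control replicate A, 697 and 406; without control replicate B, 415 and 234; and without control replicate C, 695 and 517. Of the original calls, 397 upwards and 225 downwards passed whichever library was left out. Unless stated otherwise, the genes named below with their values belong to these.

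**Figure D1:**
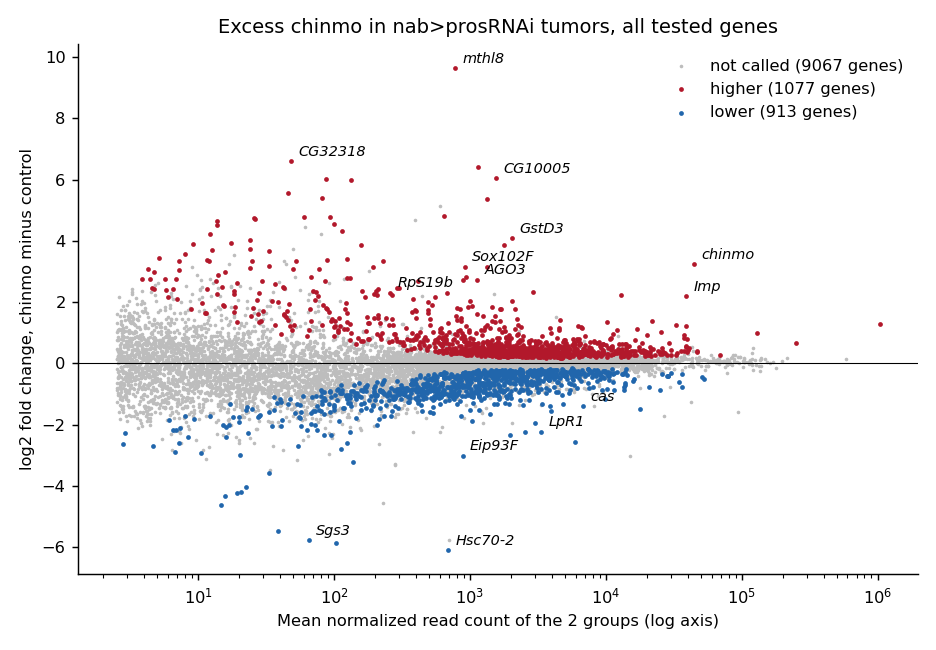
Log2 fold change of each tested gene (nab>prosRNAi, chinmo minus nab>prosRNAi) against its mean normalized read count on a log axis; red and blue points passed the test upwards (1077 genes) and downwards (913 genes). The largest increase was that of mthl8 (9.65) and the largest decrease that of Hsc70-2 (-6.10), while chinmo itself was 3.24 higher.

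The largest increases were in genes that were silent or nearly silent in the control tumors. mthl8, on chromosome arm 3L, encodes a receptor of the Methuselah family of G protein-coupled receptors. Its values were 1469, 1572 and 1606 with excess Chinmo and 0.928, 1.05 and 0.832 in the control, where it had 3 reads in all. The ratio was 1665, with a 95% interval of 569 to 8079 that covers counting error only, and the log2 difference was 9.65 ± 0.23 (SE; adjusted p = 1.73e-05). In the chinmoRNAi libraries it was at 1.86, 0 and 0. No other gene went from near silence to so high a level. CG32318, on 3L between Klp61F and Psf1, had values of 83.6, 95.1 and 110 with excess Chinmo and no read in the control or chinmoRNAi libraries. Against a floor of 3 reads per library it was at least 34.3-fold higher. Its neighbour Klp61F, a mitotic kinesin, was at 9424, 10223 and 10298 against 9361, 9605 and 9111 and did not pass the test (adjusted p = 0.275).

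Other genes rose from a low level to the middle of the range. CG10005, on 3R, was at 2767, 2804 and 3577 with excess Chinmo against 48.2, 49.2 and 37.4 (log2 difference 6.05 ± 0.16, adjusted p = 1.73e-05). CG1850 was at 283, 290 and 220 against 0.928, 6.28 and 4.16 (5.98 ± 0.52, adjusted p = 0.00142). nompA, which encodes an extracellular protein of the cap that links sensory dendrites to the cuticle, was at 101, 135 and 111 against 0.928, 4.19 and 6.65 (4.77 ± 0.55, adjusted p = 0.00331). In each of these genes the lowest chinmo library lay far above the highest control library. PH4alphaPV, a prolyl 4-hydroxylase subunit, was at 57.0, 57.5 and 38.2 against 0, 1.05 and 2.50. The odorant-binding protein gene Obp56a was at 1314, 548 and 1887 against 44.5, 31.4 and 39.9 (4.82 ± 0.44, adjusted p = 0.00164).

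In another set of genes the increase was uneven between replicates. lcs was at 258, 70.8 and 183 against 0, 11.5 and 0 (6.02 ± 1.07, adjusted p = 0.013), and CG13946 at 119, 18.8 and 135 against 0, 2.09 and 0. In both, replicate B was the lowest of the chinmo libraries and still above every control library. Hsp70Ba, a copy of the inducible Hsp70 chaperone, was at 259, 60.9 and 219 against 1.86, 4.19 and 10.8, with reads that nearly identical Hsp70 copies may share, and it was also high in the chinmoRNAi libraries (205, 427 and 153). CG11300 and CG32198 were far highest in the library with the gut genes. CG11300 was at 6093, 573 and 193 against 16.7, 7.33 and 6.65, and its call was lost without control replicate B (adjusted p = 0.0625). CG32198 was at 6837, 612 and 412 against 9.28, 76.4 and 29.1, and its adjusted p of 0.0253 became 0.0506 without chinmo replicate B and 0.0739, 0.0512 and 0.0672 without control replicates A, B and C. For CG13445, on 128, 21.0 and 5.78 against no read in the control, the adjusted p of 0.0261 likewise was 0.0662 without chinmo replicate B and 0.0728, 0.0868 and 0.0675 without control replicates A, B and C. IM3, which encodes a small immune-induced peptide, was at 111, 13.3 and 360 against 0, 3.14 and 0.832, and its adjusted p of 0.0262 became 0.0727 without chinmo replicate A and 0.0791, 0.0629 and 0.0690 without control replicates A, B and C.

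The largest decreases had as sharp a form. Hsc70-2 encodes a cytosolic chaperone of the constitutive Hsp70 class. It was at 1397, 1389 and 1317 in the control and at 27.6, 17.7 and 13.9 with excess Chinmo (-6.10 ± 0.26, adjusted p = 8.91e-05). CG31157, the next gene on 3R and on the same strand, was at 208, 211 and 190 in the control and at 1.90, 2.21 and 3.47 with excess Chinmo (-5.88 ± 0.32, adjusted p = 0.000267). Both were also low in the chinmoRNAi libraries, at 77.1, 12.6 and 13.1 for Hsc70-2 and 10.2, 24.1 and 20.6 for CG31157, so that only the nab>prosRNAi libraries held a high level. The salivary gland glue genes Sgs3 and CG7587 are also in this set. Sgs3 was at 44.5, 107 and 238 in the control and at 0, 1.11 and 2.31 with excess Chinmo, on 436 and 3 reads in all, a ratio of 127 (95% counting interval 43.1 to 617). Cpr78E, a cuticle protein gene, was at 164, 181 and 296 against 27.6, 25.4 and 50.9 (-2.61 ± 0.36, adjusted p = 0.00615). Of the remaining large decreases, CG5656, CG3635 and Sgs4 lost their call without control replicate B (adjusted p = 0.0666, 0.0527 and 0.0721). Cpr64Aa, Cpr64Ac and Sgs8 lost theirs without chinmo replicate A and without each control replicate, with adjusted p up to 0.0944 for Cpr64Aa, 0.107 for Cpr64Ac and 0.0740 for Sgs8.

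**Figure D2:**
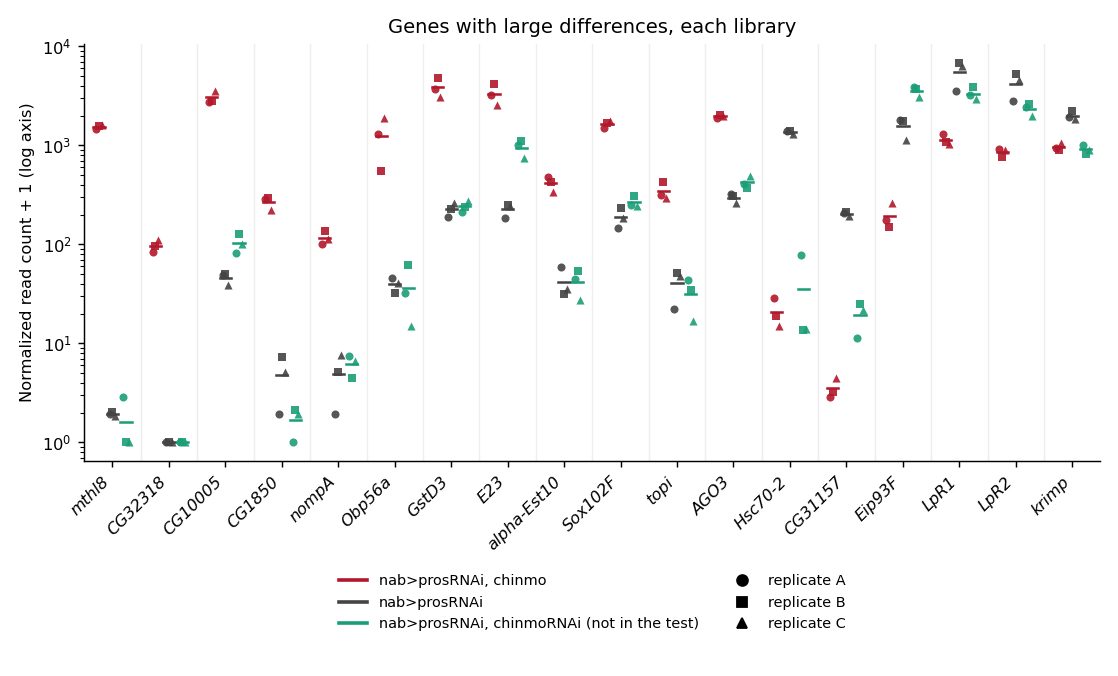
Normalized read count plus 1 (log axis) of genes with large differences, in each library of nab>prosRNAi, chinmo (red), nab>prosRNAi (grey) and nab>prosRNAi, chinmoRNAi (green); symbols mark replicates and bars the mean of a group. The 3 chinmo libraries of mthl8 sit between 1469 and 1606, the 3 control libraries at about 1, and Hsc70-2 is high in the grey libraries and low in both others.

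The temporal factors split into genes that rose and genes that fell. Of 18 temporal factors tested, 4 rose and 8 fell (22.2% and 44.4%, beside 9.74% and 8.26% of all genes). The overexpressed gene itself is among the 4. The list was written with the paper known, which names Imp and lin-28 as positive targets of Chinmo from these same libraries. The share that rose is therefore no independent result. chinmo, the targeted gene, was at 71836, 89792 and 81295 with the transgene and at 8190, 8533 and 8819 without it (3.24 ± 0.09, adjusted p = 1.73e-05). Imp was at 59300, 85036 and 49217 against 12344, 12769 and 16561 (2.19 ± 0.21, adjusted p = 0.00201). lin-28, which encodes an RNA-binding protein that in worms and mammals blocks the maturation of let-7 microRNAs, was at 607, 595 and 517 against 153, 194 and 193 (1.67 ± 0.15, adjusted p = 0.00143). In the chinmoRNAi libraries lin-28 was at 13, 6.87 and 6.56. The Sox gene D (Dichaete) had a smaller increase, from 1252, 1294 and 1164 to 1923, 1956 and 1740 (0.60 ± 0.07, adjusted p = 0.00436).

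Of the 8 factors that fell, 3 kept their call with every library left out. Eip93F, a late ecdysone-induced transcription factor, fell from 1804, 1776 and 1129 to 175, 148 and 258 (-3.02 ± 0.26, adjusted p = 0.00141). cas, a zinc-finger factor of embryonic and early larval neuroblasts, fell from 9661, 10544 and 9541 to 3641, 3795 and 3821 (-1.40 ± 0.06, adjusted p = 8.28e-05). The POU-domain gene nub fell from 263, 245 and 294 to 149, 125 and 115 (-1.04 ± 0.17, adjusted p = 0.0103). Of these, Eip93F is known as a late factor, and cas and nub from early neuroblasts. Syp, which encodes Syncrip, was at 37700, 41292 and 50345 against 65833, 65332 and 54215 (-0.52 ± 0.13, adjusted p = 0.0386), a call lost without chinmo replicate A or B or control replicate A or B (adjusted p from 0.0962 to 0.127). mamo, a BTB zinc-finger gene, was at 397, 370 and 449 against 751, 1058 and 654 (-0.99 ± 0.19, adjusted p = 0.0161), and it lost its call without chinmo replicate A or B (adjusted p = 0.0503 and 0.0510). The number of temporal factors that fell was 4 without any of chinmo replicate A, chinmo replicate B or control replicate B, it was 5 without control replicate A, and the 4 that rose did so in every case.

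**Figure D3:**
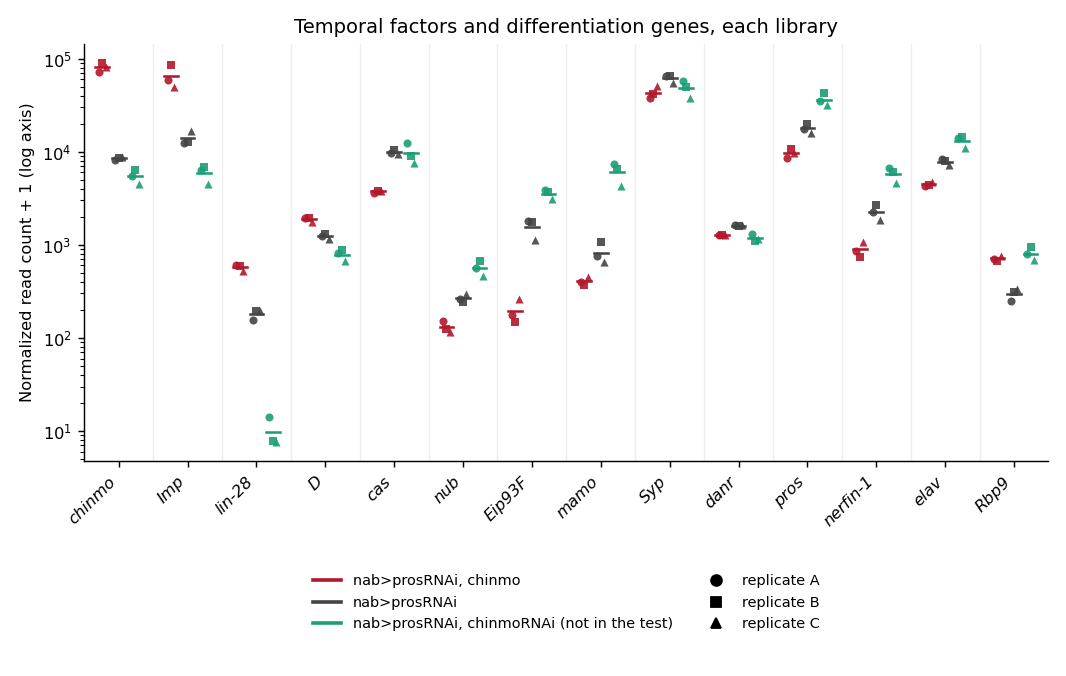
Normalized read count plus 1 (log axis) of temporal factors and of genes linked to neuronal differentiation in each library, with colours, symbols and bars as for the genes with large differences. chinmo, Imp, lin-28 and D are higher in all 3 red than in all 3 grey libraries, while cas, nub, Eip93F, pros, nerfin-1 and elav are lower.

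General neuroblast genes passed the test by limma at shares near or under those of all genes, and some genes of young neurons fell. Among 34 neuroblast genes tested, 2 rose and 3 fell (5.88% and 8.82%, beside 9.74% and 8.26% of all genes). DESeq2 called 8 and 8. The median log2 fold change of 0.02 turned to -0.06 when the libraries were scaled to the same total. The number that fell was 1 without chinmo replicate A or B or control replicate A or B and 5 without chinmo replicate C. sna, a Snail-family repressor of neuroblasts, was at 3469, 2898 and 3518 against 1162, 982 and 776, and vnd, a homeobox gene of ventral neuroblasts, at 1147, 1020 and 1112 against 616, 538 and 695 (0.83 ± 0.11, adjusted p = 0.00581). pros, the gene silenced in all tumors here, was at 8607, 10751 and 9584 against 17406, 19998 and 15859 (-0.88 ± 0.11, adjusted p = 0.00461). Among 13 pan-neuronal genes 1 rose and 4 fell by limma (7.69% and 30.8%) or edgeR, and 10 fell by DESeq2, with a median of -0.81. nerfin-1, a zinc-finger gene that keeps young neurons from turning back into neuroblasts, fell from 2241, 2667 and 1858 to 855, 738 and 1079 (-1.34 ± 0.18, adjusted p = 0.00516). Rbp9 went the other way. It encodes a neuronal RNA-binding protein of the Elav family and was at 710, 667 and 762 against 250, 314 and 331 (1.26 ± 0.14, adjusted p = 0.00278), while elav was at 4234, 4429 and 4676 against 8408, 7856 and 7159 (-0.81 ± 0.07, adjusted p = 0.00157). In RNA of whole VNCs, fewer neurons, less RNA per neuron and dilution by more tumor RNA cannot be told apart. The paper measured larger tumors and larger tumor neuroblasts with the chinmo transgene. From these libraries and the knockdown, it also reported neuronal differentiation genes as enriched among negative targets of Chinmo. The shares of neuronal lists here and below are therefore no independent result. Without chinmo replicate B the number of pan-neuronal genes that fell was 7, and without any of the control replicates it was 2.

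Many transcription factors that give neurons their subtype fell. Of 46 tested, 21 fell and 5 rose (45.7% and 10.9%, beside 8.26% and 9.74% of all genes), with a median log2 fold change of -0.65. The genes that fell include homeobox genes of several classes. B-H2, a Bar-class homeobox gene, was at 66.5, 48.7 and 74.0 against 170, 169 and 175 (-1.45 ± 0.22, adjusted p = 0.00838). The Iroquois genes ara and caup fell together, ara from 237, 198 and 240 to 87.4, 76.3 and 103, and caup from 430, 439 and 431 to 222, 196 and 229. Lim1, a LIM-homeobox gene of interneurons, fell from 551, 593 and 715 to 333, 287 and 215 (-1.17 ± 0.19, adjusted p = 0.00986). The Pax6 gene ey (-0.69 ± 0.11) and the POU-domain gene vvl (-0.39 ± 0.05) fell less. The 2 members that rose and kept their call with every library left out were HGTX and eya. HGTX, the fly Nkx6 homolog that acts in motor neurons, was at 2614, 2579 and 2299 against 1015, 1079 and 1160 (1.20 ± 0.08, adjusted p = 0.000588). eya, a transcriptional cofactor with phosphatase activity, was at 1268, 1059 and 1136 against 605, 709 and 551 (0.90 ± 0.12, adjusted p = 0.00544). The number of subtype factors that fell was 12 without control replicate A, 6 without control replicate B and 14 without control replicate C, and 15 to 19 without a chinmo library. Without control replicate B 2 rose.

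The Hox genes, which give VNC neuroblasts and neurons their segmental identity, gave several decreases. Of 10 Hox genes and cofactors tested, 5 fell (50%, beside 8.26% of all genes), with a median of -0.51. None rose by limma, edgeR or DESeq2, nor at an unadjusted p under 0.05. Abd-B was at 571, 512 and 456 against 869, 771 and 1069 (-0.81 ± 0.15, adjusted p = 0.0144) and abd-A at 2928, 2623 and 2795 against 4080, 3820 and 4528 (-0.57 ± 0.08, adjusted p = 0.00586). The other members that fell were Ubx (-0.44), the anterior Hox gene Scr (-1.01) and the cofactor gene hth (-0.28). Their calls were lost with single libraries left out, with adjusted p up to 0.0611 for Ubx, 0.114 for Scr and 0.110 for hth. Of the Hox list 2 to 4 members fell when a library was left out, 2 of them without chinmo replicate B or any control replicate.

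Many molecules by which axons recognise each other and their paths fell. Of 63 axon guidance and adhesion genes tested, 27 fell and 1 rose (42.9% and 1.59%, beside 8.26% and 9.74% of all genes), with a median of -0.38. Fas2, a homophilic adhesion molecule of axon bundles, was at 2805, 2695 and 1961 against 4808, 4417 and 5214 (-0.97 ± 0.14, adjusted p = 0.00729). Con (connectin), which is found on motor axons and muscles, was at 865, 932 and 619 against 1534, 1666 and 2004 (-1.12 ± 0.17, adjusted p = 0.00859), and the N-cadherin gene CadN at 3141, 3542 and 2450 against 5328, 5769 and 6252 (-0.94 ± 0.14, adjusted p = 0.00705). The semaphorin genes Sema-1a (-0.58 ± 0.07) and Sema-2b (-1.10 ± 0.13), the teneurin gene Ten-m (-0.64 ± 0.06) and the adhesion genes Fas1 (-0.53 ± 0.07), Nrt (-0.77 ± 0.08) and otk (-0.79 ± 0.11) also fell. Fas1, Fas2, Con, CadN, Sema-2b and Ten-m were higher in every chinmoRNAi library than in every control library. Con, for example, was at 4601, 5295 and 3648 there. The member that rose, hig, encodes a secreted protein of the synaptic cleft. It was at 55685, 53343 and 54208 against 24028, 22765 and 23597 (1.21 ± 0.06, adjusted p = 0.00016), with tight replicates in both groups. Of 35 genes of the Beat, Dpr and Side families of cell surface proteins, 11 fell and 1 rose by limma (31.4% and 2.86%). DESeq2 called 24 lower and 1 higher, and the median was -0.84. dpr2 fell from 494, 434 and 571 to 202, 211 and 201 (-1.27 ± 0.14, adjusted p = 0.00278), and side, a guidance cue for motor axons, from 1032, 1064 and 1189 to 707, 696 and 575. The number of axon guidance genes that fell was 16 without control replicate A, 10 without control replicate B and 16 without control replicate C, and for the Beat, Dpr and Side families it was 6 without chinmo replicate A, 7 without chinmo replicate B and 2 without any of the control replicates.

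Genes of mature neurons had low medians, and the number called differed between tools. Among 44 synapse genes 6 fell and 1 rose by limma (13.6% and 2.27%, beside 8.26% and 9.74% of all genes), with a median of -0.76. By edgeR 4 fell, by DESeq2 20, and 23 were lower at an unadjusted p under 0.05. Of 18 voltage-gated channel genes none was called by limma or edgeR, 4 fell by DESeq2, and 7 were lower at an unadjusted p under 0.05, with a median of -0.65. Of 29 neuropeptide genes tested 3 fell by limma (10.3%) or edgeR and 10 by DESeq2, 18 were lower at an unadjusted p under 0.05, and the median was -0.87. The summed level of the synapse list was 135364, 156067 and 109809 with excess Chinmo and 160791, 155149 and 202365 in the control. The groups thus overlap, since chinmo replicate B lay above control replicate B. The number of synapse genes that fell was 2, 4 and 3 without chinmo replicates A, B and C and 2, 0 and 2 without control replicates A, B and C, and that of neuropeptide genes 0, 3 and 2 and then 1, 0 and 0.

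Ecdysone is the steroid that times the late larval changes in neuroblasts. Among 18 genes of the ecdysone response 6 fell (33.3%, beside 8.26% of all genes) and the median was -0.63. None rose by limma, edgeR or DESeq2, nor at an unadjusted p under 0.05. Besides Eip93F, Hr46, an ecdysone-induced nuclear receptor, fell from 572, 424 and 450 to 238, 251 and 179 (-1.11 ± 0.19, adjusted p = 0.0107). Eip74EF, an early ETS-domain gene of the response, was at 1461, 842 and 1961 against 3236, 3667 and 3497 (-1.37 ± 0.28, adjusted p = 0.0209). That call was lost without chinmo replicate A (adjusted p = 0.0513) and without control replicates A, B and C (0.0565, 0.0798 and 0.0598). br, the early gene Broad, was at 14816, 13425 and 27612 against 22490, 23654 and 23366, with replicate C above and A and B below every control library, and did not pass the test (adjusted p = 0.313). E23, an ABC transporter gene named for its early response to ecdysone and not on the list, rose strongly, from 183, 248 and 245 to 3254, 4149 and 2567 (3.86 ± 0.20, adjusted p = 0.000205). It was chosen after its values were seen. The number of ecdysone response genes that fell was 3 without chinmo replicate A or B, 10 without chinmo replicate C, 2 without control replicate A or B and 4 without control replicate C.

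Notch signalling between the neuroblast and its daughter is read out by the Enhancer of split genes. Of 11 Notch target genes tested 4 fell (36.4%, beside 8.26% of all genes), with a median of -1.09. None rose by limma, edgeR or DESeq2, nor at an unadjusted p under 0.05. The summed level of the list differed far less than the median, at 5480, 4928 and 4867 with excess Chinmo and 5637, 5934 and 5747 in the control. E(spl)m4-BFM, of the Bearded family of Notch pathway inhibitors, was at 76.0, 66.4 and 72.9 against 152, 251 and 175 (-1.38 ± 0.24, adjusted p = 0.012), with a call lost without control replicate B (adjusted p = 0.0510). The other members that fell were E(spl)malpha-BFM and E(spl)m6-BFM of the same family and the basic helix-loop-helix repressor E(spl)m7-HLH. Without control replicate B none of the 4 passed; 1 did without chinmo replicate A or control replicate A, and 2 without chinmo replicate B or control replicate C.

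Some DNA replication genes rose by small amounts. From these libraries and the knockdown, the paper reported DNA replication and ribosome biogenesis as enriched among positive targets of Chinmo. The shares of this list and of the ribosome assembly list below are therefore no independent result. Of 41 tested, 13 rose (31.7%, beside 9.74% of all genes), with a median of 0.19. By limma none fell, although 3 were lower at an unadjusted p under 0.05, and DESeq2 called 3 lower and edgeR none. Psf1, a subunit of the GINS complex of the replicative helicase, was at 816, 888 and 848 against 496, 522 and 441 (0.81 ± 0.10, adjusted p = 0.00389). CDC45L, another helicase component, was at 4366, 4834 and 4119 against 2933, 3070 and 2843 (0.59 ± 0.07, adjusted p = 0.00396), and Cdc6, which loads the helicase at origins, at 2600, 2913 and 2992 against 1977, 1786 and 1537 (0.69 ± 0.10, adjusted p = 0.00816). These 3 genes are the members that passed with every library left out. The number that rose was 3 without chinmo replicate A or B or control replicate B, 6 without control replicate A and 7 without control replicate C, and it was 7, with 4 lower, when the libraries were scaled to the same total.

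Of 12 genes of G1 to S control 4 fell and 1 rose (33.3% and 8.33%, beside 8.26% and 9.74% of all genes), with a median of -0.09. dap, the inhibitor of Cyclin E and Cdk2 that brings cells out of the cycle, fell from 1672, 1747 and 1364 to 985, 916 and 1037 (-0.70 ± 0.11, adjusted p = 0.00867). Rbf2, a retinoblastoma family repressor, fell from 2437, 2520 and 2335 to 1727, 1811 and 1769 (-0.46 ± 0.06, adjusted p = 0.00396). Without control replicate B these 2 were the members that fell. Mitosis genes had 7 of 45 lower and 1 higher (15.6% and 2.22%, beside 8.26% and 9.74% of all genes), 12 and 8 by DESeq2, and a median of -0.06. Among them stg, the Cdc25 phosphatase gene that triggers entry into mitosis, fell from 5717, 5185 and 5142 to 3565, 3317 and 3656 (-0.61 ± 0.06, adjusted p = 0.00278). The number of mitosis genes that fell was 2 without chinmo replicate A, 3 without chinmo replicate B or control replicate A and 1 without control replicate B, and it was 18 with the libraries scaled to the same total.

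Some ribosome assembly genes rose by small amounts. Of 28 genes of ribosome assembly, RNA polymerase I included, 10 rose by limma (35.7%, beside 9.74% of all genes). By edgeR 17 rose and by DESeq2 20, and the median was 0.27. None fell by limma, edgeR or DESeq2, nor at an unadjusted p under 0.05. RpI135, a large subunit of RNA polymerase I, was at 5067, 5225 and 5560 against 4170, 4276 and 3827 (0.37 ± 0.06, adjusted p = 0.0117), and the nucleolar gene Nnp-1 at 8408, 8769 and 8919 against 6985, 7029 and 6060 (0.38 ± 0.07, adjusted p = 0.0149). RpI135 did not pass in a fit of all 9 libraries. With 1 library left out 2 to 6 of these genes rose, 2 of them without chinmo replicate C or control replicate B. Of 74 mitochondrial ribosomal protein genes, 15 rose and 2 fell by limma (20.3% and 2.70%, beside 9.74% and 8.26% of all genes). The median was 0.16, and 23 rose by edgeR and 28 by DESeq2. The number that rose was 6, 7 and 10 without chinmo replicates A, B and C and 10, 3 and 6 without control replicates A, B and C, and it was 9 with the libraries scaled to the same total.

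Among 89 cytosolic ribosomal protein genes 1 rose and 2 fell (1.12% and 2.25%, under the 9.74% and 8.26% of all genes). Their median of 0.07 became -0.01 with libraries scaled to the same total or by quantiles. edgeR called 2 higher and 2 lower, and DESeq2 13 and 2. All of the 3 called by limma are second copies of a ribosomal protein gene. RpS19b was at 424, 475 and 395 against 83.5, 114 and 66.5 (2.31 ± 0.23, adjusted p = 0.00217). RpS15Ab was at 1921, 2115 and 1907 against 2960, 2850 and 2663 (-0.51 ± 0.07, adjusted p = 0.00544), and RpS5b at 74.1, 73.0 and 94.9 against 145, 235 and 168, where the adjusted p of 0.024 became 0.0668 and 0.0614 without chinmo replicates A and B and 0.0901 and 0.0599 without control replicates B and C. Reads of such copies may be shared with the main gene, so these values carry that uncertainty.

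**Figure D4:**
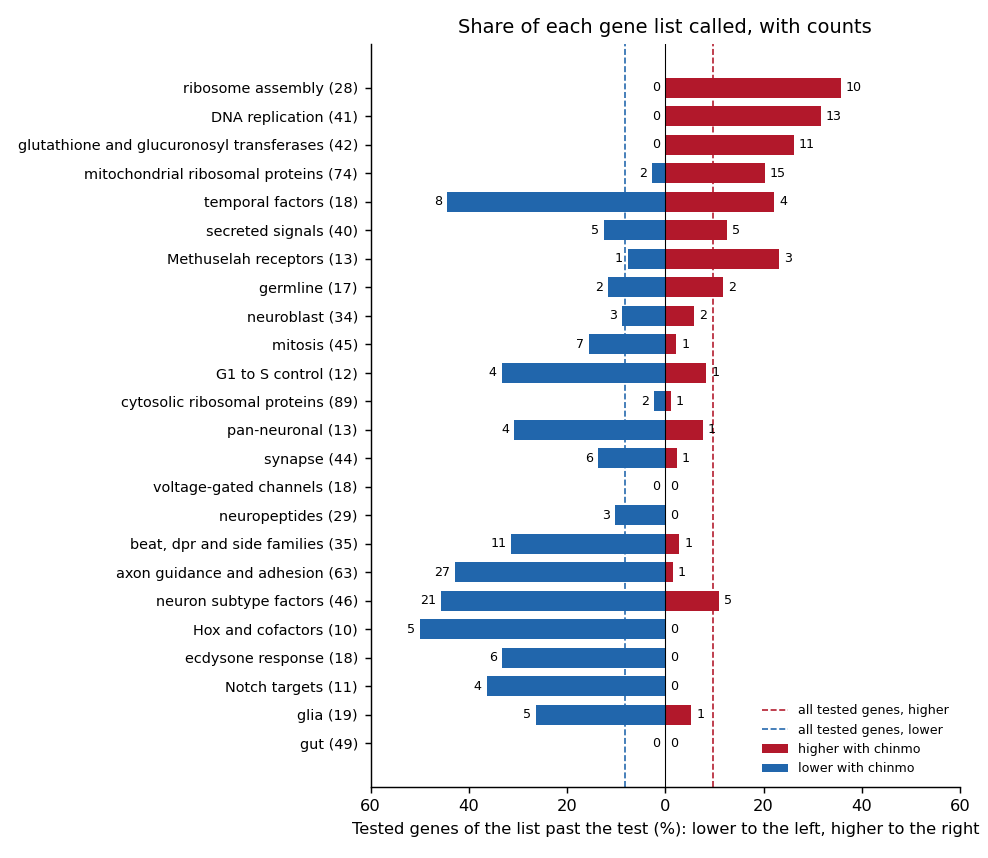
Percentage of the tested genes of each list that passed the test, higher to the right in red and lower to the left in blue, with the number of genes at the end of each bar and the number tested in parentheses; dashed lines mark 9.74% and 8.26%, the shares among all tested genes. Ribosome assembly (10 of 28) and DNA replication (13 of 41) lie to the right, and neuron subtype factors (21 of 46), axon guidance (27 of 63) and Hox genes (5 of 10) to the left.

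Some glutathione transferase genes rose. Of 42 glutathione and glucuronosyl transferase genes tested 11 rose (26.2%), with a median of 0.38. By limma and edgeR none fell, while 5 were lower at an unadjusted p under 0.05 and DESeq2 called 4. GstD3 stood out among them. It was at 3712, 4841 and 3051 against 187, 225 and 264 (4.08 ± 0.19, adjusted p = 0.00016). Its neighbours in the GstD cluster on 3R rose less. GstD1 was at 15708, 16030 and 12309 against 5917, 5154 and 6068 (1.36 ± 0.12, adjusted p = 0.00141). GstE1 (0.96 ± 0.14), GstT3 (0.77 ± 0.09) and GstO2 (0.57 ± 0.08) of other classes also rose. All of these held with any library left out, when 5 to 8 members of the list passed upwards; the count was 6 without chinmo replicate A or B and 5 without control replicate B. Reads may be shared among copies of the GstD cluster. Of 72 cytochrome P450 genes 2 rose and 2 fell (2.78% each, under the 9.74% and 8.26% of all genes), with a median of -0.09. Cyp9c1 was at 1344, 1457 and 1203 against 551, 574 and 754 (1.10 ± 0.14, adjusted p = 0.00466). The esterase gene alpha-Est10, named after its values were seen, was at 478, 430 and 336 against 58.4, 30.4 and 34.1 (3.35 ± 0.29, adjusted p = 0.00143).

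The lipophorin receptor genes LpR1 and LpR2, which take up lipids from the hemolymph, fell together. LpR1 was at 1313, 1074 and 1041 against 3529, 6806 and 6327 (-2.23 ± 0.25, adjusted p = 0.00302), and LpR2 at 919, 767 and 890 against 2800, 5206 and 4578 (-2.24 ± 0.22, adjusted p = 0.00222). In both, control replicate A was the lowest of its group and lay above every chinmo library. The chinmoRNAi libraries lay above every chinmo library, at 3236, 3848 and 2928 for LpR1 and 2427, 2589 and 1960 for LpR2. The pair is closely related in sequence and may share reads, and it was named after its values were seen.

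Growth factor genes moved singly. Of 40 secreted signals 5 rose and 5 fell (12.5% each, near the 9.74% and 8.26% of all genes), with a median of -0.26. DESeq2 called 6 and 10. vn, the neuregulin-like ligand of the EGF receptor, was at 1181, 1241 and 1072 against 368, 412 and 422 (1.54 ± 0.10, adjusted p = 0.000523). pyr, an FGF8-like ligand of the receptor Heartless, was at 2380, 2443 and 2556 against 1837, 1826 and 1678 (0.47 ± 0.06, adjusted p = 0.00538). These ligands kept their call with every library left out. The relaxin-like hormone gene Ilp8, released by damaged or overgrown tissue, was at 130, 55.3 and 304 against 5.57, 25.1 and 10.8 (3.37 ± 0.74, adjusted p = 0.0259), and it lost its call without chinmo replicate A and without control replicates A and C (adjusted p = 0.0678, 0.0738 and 0.0690). bnl, an FGF that guides tracheal branches, was at 588, 387 and 1423 against 263, 144 and 128 (2.01 ± 0.50, adjusted p = 0.0369), with an adjusted p of 0.0741 without chinmo replicate A and of 0.0512, 0.116 and 0.0999 without control replicates A, B and C. The number of secreted signals that rose was 2 without chinmo replicate A or control replicate A or C and 3 without control replicate B, and the number that fell was 2, 3, 1 and 0 without chinmo replicates A and B and control replicates A and B.

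Of the 13 Methuselah family receptors tested, 3 rose and 1 fell (23.1% and 7.69%, beside 9.74% and 8.26% of all genes). mthl8 was joined by mth and mthl10 among those that rose, with much smaller changes. mth, the receptor after which the family is named, was at 1815, 2116 and 1961 against 1368, 1258 and 1223 (0.61 ± 0.08, adjusted p = 0.0051), and mthl10 at 1459, 1538 and 1408 against 953, 953 and 1073 (0.57 ± 0.08, adjusted p = 0.00593). 1 member of the family, mthl5, fell (-0.48), and its adjusted p was 0.106 to 0.124 without chinmo replicate A or B or control replicate A or B.

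Several genes known for their part in the germline were among the changes. Of 17 germline genes tested 2 rose and 2 fell, shares of 11.8% each that lie near those of all genes, with changes of unlike size. AGO3, an Argonaute protein that works in the piRNA amplification cycle against transposons, was at 1882, 2025 and 1984 against 322, 305 and 260 (2.73 ± 0.10, adjusted p = 6.02e-05). krimp, a Tudor-domain gene of the same cycle, fell from 1935, 2239 and 1826 to 949, 901 and 1066 (-1.04 ± 0.10, adjusted p = 0.00222). Genes outside the list, named after their values were seen, include fs(1)Yb, a Tudor-domain gene of the piRNA pathway in ovarian somatic cells, at 252, 249 and 190 against 23.2, 36.6 and 38.3 (2.80 ± 0.27, adjusted p = 0.00221). topi, a zinc-finger gene of spermatocytes, was at 315, 428 and 290 against 21.3, 50.3 and 47.4 (3.16 ± 0.36, adjusted p = 0.00331), and mos, the fly homolog of a kinase of oocyte meiosis in vertebrates, at 246, 273 and 290 against 55.7, 46.1 and 52.4 (2.37 ± 0.19, adjusted p = 0.000987). The Sox genes Sox102F and Sox15 moved in opposite directions. Sox102F, on chromosome 4, was at 1482, 1685 and 1779 against 147, 231 and 184 (3.15 ± 0.18, adjusted p = 0.000293), and Sox15 at 4.75, 2.21 and 3.47 against 26, 23 and 63.2 (-2.99 ± 0.53, adjusted p = 0.0126).

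Immune, heat shock and taste genes held single large changes. Of 23 immune genes 3 rose, and 5 without chinmo replicate B. The antibacterial peptide gene Def was at 23.8, 22.1 and 19.7 against 0, 2.09 and 2.50, and the peptidoglycan recognition gene PGRP-LA at 295, 291 and 287 against 106, 95.3 and 109 (1.49 ± 0.15, adjusted p = 0.00223). Of 21 heat shock genes 6 rose and 2 fell (28.6% and 9.52%, beside 9.74% and 8.26% of all genes), and 11 and 2 by DESeq2. Hsp67Ba, a small heat shock protein gene, fell from 3310, 3253 and 3240 to 1521, 1322 and 1467 (-1.19 ± 0.07, adjusted p = 0.000293), and with Hsc70-2 it passed with every library left out, as Hsp70Ba did upwards. The number of heat shock genes that rose was 1 without chinmo replicate A or control replicate B, 2 without chinmo replicate C or control replicate C, and 4 without control replicate A. The taste receptor gene Gr61a was at 758, 985 and 732 against 173, 230 and 255 (1.91 ± 0.19, adjusted p = 0.00222), and the ionotropic receptor gene Ir76a at 581, 541 and 514 against 1113, 1101 and 1073 (-1.01 ± 0.08, adjusted p = 0.0011).

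Marker lists of other tissues that can adhere to a dissected VNC had negative medians. No gut gene of 49 tested was called by limma or edgeR, while 1 was higher and 2 lower by DESeq2 and 1 was higher at an unadjusted p under 0.05. The median of the list was -0.25, and -2.08 without chinmo replicate A, when 4 genes were lower, but it was 0.55, 0.45 and 0.62 without chinmo replicates B and C and control replicate C, 0.03 after quantile normalization and 1.02 by edgeR or DESeq2. Fat body genes had a median of -1.27 and summed to 141343, 29493 and 91999 with excess Chinmo and 71769, 212767 and 235425 in the control. Of 18 muscle genes 2 fell (11.1%, median -1.17) and of 10 tracheal genes 2 fell (20%, median -0.70), beside 8.26% of all genes. The 11 hemocyte genes had a median of -0.71, with none called by limma, edgeR or DESeq2 or at an unadjusted p under 0.05. Muscle genes summed to 35554, 38455 and 28563 against 33645, 31918 and 44489, and tracheal genes to 3867, 2198 and 4518 against 5487, 5041 and 4696. Both tracheal calls were lost without control replicate B, and 1 call was left in muscle without any library other than chinmo replicate A. Of the 10 salivary gland genes tested (median -2.16) 5 were lower (50%), the glue genes Sgs3, Sgs4, Sgs5 and Sgs8 and the ecdysone-induced gene Eig71Ee. The summed level of that list did not follow the group, at 2302, 300 and 264 with excess Chinmo and 287, 3188 and 998 in the control. Without control replicate B 2 of them passed. The part of attached tissue in these calls was not tested.

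Cuticle genes gave 8 lower and 3 higher calls among 62 tested (12.9% and 4.84%, beside 8.26% and 9.74% of all genes), with a median of -0.80. The sums of that list did not overlap between the groups, at 6543, 4559 and 8123 with excess Chinmo and 16789, 20966 and 22188 in the control. Cpr76Bc fell from 2257, 1870 and 2285 to 547, 824 and 664 (-1.67 ± 0.16, adjusted p = 0.00196). The Cpr64A genes, which lie side by side on 3L, were lower together. Cpr64Ac was at 2097, 575 and 3608 against 8559, 11378 and 9535 (-2.58 ± 0.61, adjusted p = 0.0321), and its call was lost without chinmo replicate A (adjusted p = 0.0646) and without control replicates A, B and C (0.0787, 0.107 and 0.0807). The imaginal disc list had 4 of 11 genes lower (36.4%, beside 8.26% of all genes) and a median of -0.86. Its sums were 4941, 1978 and 5031 against 6050, 6382 and 7128, and 0 to 2 of its genes were lower with 1 library left out. Its part in the fall of cuticle genes was not tested. Without chinmo replicate A or any control replicate 2 cuticle genes passed downwards, and without chinmo replicate A or control replicate B 1 passed upwards. The larval cuticle gene Lcp65Ag3 went the other way, at 30.4, 23.2 and 27.8 against 0, 0 and 0.832, where it had 1 read in all (ratio 88.3, 95% counting interval 15.4 to 3534).

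**Figure D5:**
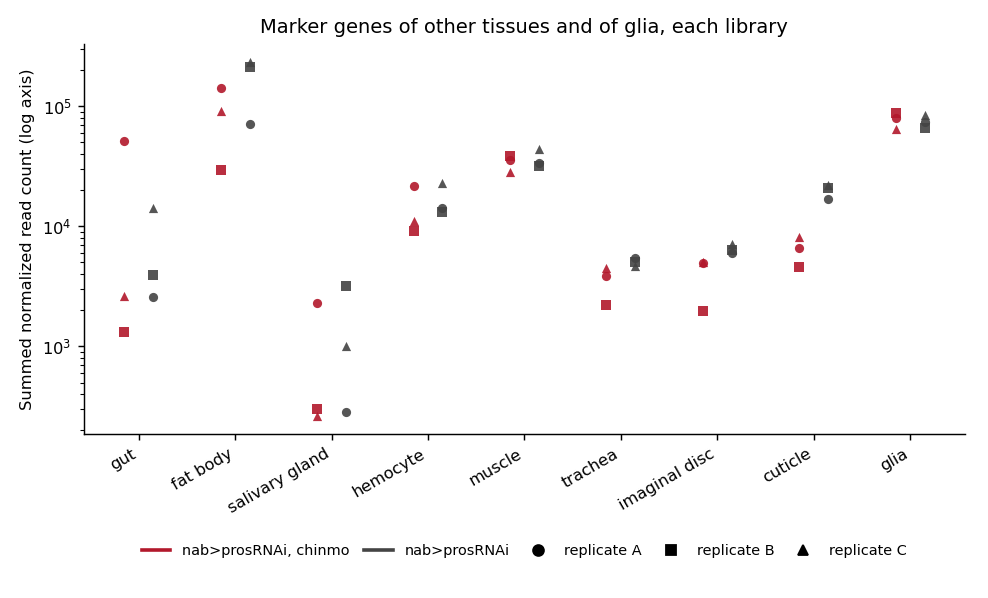
Summed normalized read count (log axis) of marker genes of other tissues and of glia in each of the 6 libraries, red with excess Chinmo and grey without, with symbols for the replicates. Chinmo replicate A lies at 50986 for gut genes, above the 5 other libraries, and the cuticle sums are the ones furthest apart, at most 8123 in red and at least 16789 in grey.

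The summed level of glial genes overlapped between the groups. The sum of 19 glial genes was 79525, 87843 and 64321 with excess Chinmo and 74477, 66243 and 84497 in the control. Single members were called, 5 lower and 1 higher (26.3% and 5.26%, beside 8.26% and 9.74% of all genes). alrm, a gene of astrocyte-like glia, was at 1495, 1818 and 599 against 3897, 3729 and 6522 (-1.95 ± 0.43, adjusted p = 0.026), a call lost without chinmo replicate A (adjusted p = 0.0502) and without control replicates A, B and C (0.0620, 0.0708 and 0.0725). Without chinmo replicate A, and likewise without control replicate B, none of the 19 fell by limma; without any other library 1 or 2 did.

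Genes that changed in the same direction sometimes lay side by side. Over the order of genes along the chromosomes, 3 runs of at least 4 adjacent tested genes rose and 4 fell. A run on 3R held CG10005, CR44135, CG18547 and CG12224. CG18547 was at 441, 330 and 376 against 159, 154 and 169 (1.24 ± 0.15, adjusted p = 0.00436) and CG12224 at 155, 170 and 233 against 55.7, 59.7 and 44.9 (1.77 ± 0.24, adjusted p = 0.00593), far less than CG10005. The noncoding RNA gene CR44135 was at 16.2, 23.2 and 28.9 against 9.28, 3.14 and 1.66, and its adjusted p of 0.0448 became 0.0744 to 0.134 without any library other than control replicate A. Another run held GstD9, GstD1, GstD2 and GstD3, in which GstD9 and GstD2 lost their call in 5 of the 6 fits with 1 library left out (adjusted p up to 0.134 and 0.0863). Calls were also counted by gene length. Of the fifth of tested genes with the longest span 17.5% fell and 8.90% rose, and of the fifth with the shortest span 4.24% fell and 7.2% rose.

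The driver and its markers bear on how the groups compare. nab, the gene from which the driver takes its activity, was at 22174, 23569 and 19520 against 19775, 17999 and 18455 (0.21 ± 0.08, adjusted p = 0.119), and w, whose minigene marks most transgenes, at 51304, 59510 and 37973 against 41482, 37169 and 33358 (0.39 ± 0.17, adjusted p = 0.151). Neither passed the test. Dcr-2, which is overexpressed from UAS-dicer2 in both groups, was at 149980, 184179 and 183046 against 73432, 90454 and 97186 (0.99 ± 0.15, adjusted p = 0.0072). The part of this difference in the level of pros was not tested.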

How the data were processed

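RNA of pooled larval VNCs was measured in 3 biological replicates per genotype. The authors aligned reads to dm3 with TopHat2 2.0.9 and Bowtie2 2.1.0, counted them on genes with HTSeq 0.5.3p9 and deposited DESeq-normalized read counts, that is, signal values of reads divided by a size factor per library. Libraries were strand-specific, and a read counted for a gene only in the antisense orientation. In every library 100% of the deposited values were whole multiples of the value of 1 read (tolerance 0.001), and reads were recovered from them.

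Genes whose values sum to at least 15 in the 6 libraries were tested with limma 3.58.1 (R 4.3.3) on log2(value + 1), with eBayes using a trend and a Benjamini-Hochberg threshold of 0.05; fold changes on this scale understate those of low genes. On the recovered reads edgeR 4.0.16 called 1336 genes higher and 744 lower and DESeq2 1.42.0 called 1695 and 1494. Other alternatives were pseudocounts, filters, scalings, no trend, all 9 libraries, a replicate block and each library left out. The p-values measure the spread between pools of VNCs.

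The genes named are the 12 largest changes in each direction (past the threshold, no overlap, a mean of at least 50 in a group), genes under 5 in the control and at least 50 with excess Chinmo, transgene-linked genes and members of 42 lists. These choices were made with earlier results of these data known, and list examples were mostly chosen for calls that held with every library left out. The Release 6 annotation gave gene names, positions and spans, matching 14939 genes. Gene sequences were not used here. Intervals are exact and cover counting error only.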

Additional observations from a re-analysis of the deposited data

How the results depend on the processing

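The difference in chinmo kept its direction and call under all 19 other settings (log2 fold change from 3.16 to 3.33). Of 291 other named genes that were called, none turned direction in any setting. Of these, 45 were called in all settings, and 98 in all settings except the replicate block. The number of genes higher and lower was 667 and 547 without a trend in eBayes, 671 and 749 in a fit of all 9 libraries, 1695 and 1494 with DESeq2, and 817 and 1620 with libraries scaled to the same total, where 33.5% of calls were upwards beside 54.1% (64.2% with edgeR); the cause was not tested. With 1 library left out, the number higher ranged from 415 to 885 and the number lower from 234 to 874, the lowest without control replicate B; fewer samples entered those fits. With the replicate block 125 genes were higher and 45 lower. Deviations of libraries with the same letter correlated at -0.41, 0.01 and -0.38. The highest correlation, 0.45, was between chinmo replicate A and control replicate C, which had the highest gut sums of their groups. Deviations within a group also cancel out, so the pairs are not independent. These values therefore cannot decide whether libraries with the same letter were prepared together. Depth limits only genes near the floor of 3 reads per library.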
